A study of Mus musculus with 18 samples.

Results

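The 33 genes described here belong to homologous recombination and the Fanconi anaemia pathway. They were taken by name from a table of 24062 genes, all 33 were found in it, and all 33 passed the filter on low counts, which kept 14271 genes. Total RNA from 18 intestinal tumours of male C57BL/6 mice was sequenced to ask how gene expression differs by Macrod2 genotype. All mice carried the ApcMin/+ allele, a germline Apc mutation that gives rise to intestinal tumours, so no group is without it. The groups were tumours of ApcMin/+/Macrod2-/- mice (hom, 6 tumours of the large intestine), of ApcMin/+/Macrod2-/+ mice (het, 5 of the large intestine and 1 of the small intestine) and of ApcMin/+/Macrod2+/+ mice (wt, 6 of the large intestine). The age of the mice and the position of the Macrod2 deletion are not given in the labels. Each title numbers a mouse within its genotype, so the tumours were taken as separate animals. Comparisons used the 17 tumours of the large intestine.

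Homologous recombination repairs a broken chromosome by copying an intact sister. The broken ends are resected to single strands, mediator proteins such as BRCA2 prepare these strands to pair with the sister, and helicases and nucleases resolve the joined strands afterwards. The Fanconi anaemia proteins recognise crosslinks between the DNA strands at stalled replication forks and hand the resulting breaks to recombination. Sister chromatids exist only after replication, so the pathway works in S and G2 phase, and many of its genes are known to be transcribed mainly in cycling cells. Intestinal tumours that lose Apc hold many such cells, and Mki67, which encodes a protein of cycling nuclei, is a common marker of them. Macrod2 encodes an enzyme that removes ADP-ribose from proteins, a modification used in DNA damage signalling.

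Libraries held 13529204 to 20857918 counts, and the lowest count of any of the 33 genes in any tumour was 17 (Rad51c). Macrod2 itself averaged 0.158 ± 0.145 CPM in hom tumours (SD, n = 6) and 2.20 ± 0.749 CPM in het tumours (SD, n = 5), against 3.74 ± 0.605 CPM in wt tumours (SD, n = 6), where CPM are counts scaled to library size with TMM factors. By an exact two-sided permutation test, p was 0.00216 in the contrast of hom with wt tumours and likewise 0.00216 in that of hom with het tumours, while het with wt tumours gave 0.0130 (after Benjamini-Hochberg adjustment over the 3 contrasts 0.00325, 0.00325 and 0.0130). The epithelial label was matched by Epcam at 2455 to 3666 CPM, and all 10 epithelial markers were detected. The library of wt tumour 3 had 27.0% of its counts on the ribosomal gene Rn45s, against at most 0.725% elsewhere. Wt tumours 1 and 2 stood apart from the rest in earlier results on these libraries, so the main counts are also given without both. In such bulk samples, fewer cells of a type and less RNA per cell cannot be told apart.

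Levels were compared between genes per kilobase, as the authors' RPKM. Rbbp8, which encodes the CtIP protein that starts resection, had the highest level, at 14.3 ± 1.83 RPKM (SD, n = 17 tumours). Nbn, the adaptor subunit of the MRN complex, followed at 10.5 ± 2.27 RPKM, Fance of the Fanconi core complex at 8.58 ± 1.80 RPKM and Rad50, the MRN ATPase, at 8.28 ± 1.04 RPKM. Mre11a, the MRN nuclease, was at 7.54 ± 1.36 RPKM, the nuclease gene Mus81 at 7.35 ± 1.52 RPKM and Fancl, the ubiquitin ligase of the core complex, at 6.98 ± 0.873 RPKM. From Fance down, each of these genes lay within 1 SD of the next.

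A middle group with Eme1, Brca1 and Rad54l lay at 5.12 ± 2.18, 5.08 ± 1.33 and 5.05 ± 2.10 RPKM and could not be ordered within its spread. The lowest levels were those of Brca2 (1.52 ± 0.310 RPKM), a mediator of strand pairing, of the translocase gene Rad54b (1.12 ± 0.431 RPKM) and of Rad51c (1.10 ± 0.610 RPKM). Rad51c and Rad54b did not differ beyond their spread.

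The genes also differed in how much their level varied from tumour to tumour. The highest tumour exceeded the lowest by 8.36-fold for Rad51c, by 6.52-fold for Rad54l, by 6.03-fold for Eme1, by 5.52-fold for Fancb and by 5.19-fold for Fanci. Mki67 spanned 3.74-fold. The corresponding fold was 1.55 for Fancl, 1.56 for Rbbp8 and 1.68 for Rad51d, and these varied least over the 17 tumours.

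**Figure D1:**
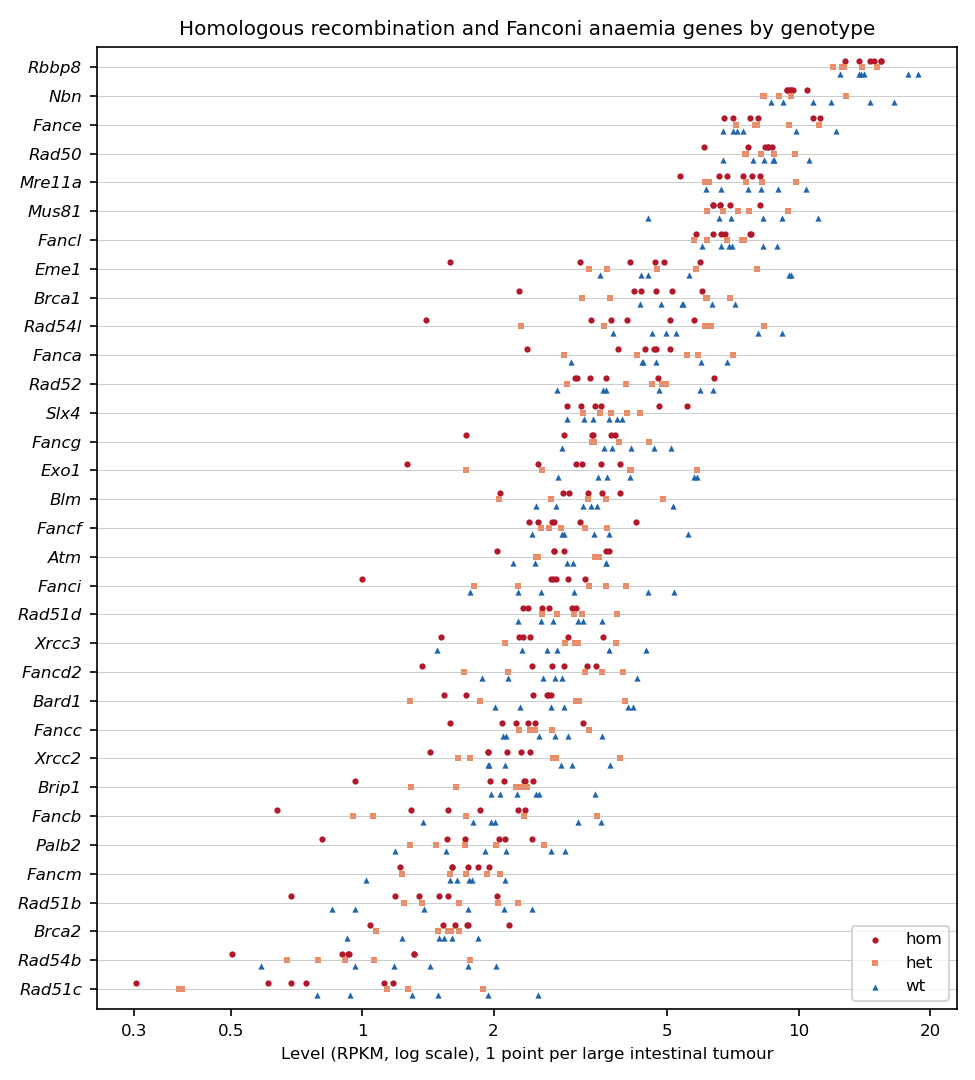
Level of each of the 33 genes in RPKM (horizontal axis, log scale) in the 17 tumours of the large intestine, 1 point per tumour, with hom circles above het squares above wt triangles in each row. Rows run from Rbbp8 (14.3 RPKM) to Rad51c (1.10 RPKM), and the points of the 3 genotypes overlap for the genes named in the text.

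The main pattern among tumours was a shared movement with the proliferation marker. Mki67 stood at 112 to 313 CPM in hom tumours (median 232), at 158, 175, 271, 262 and 403 CPM in the 5 het tumours, and at 208 to 419 CPM in wt tumours (median 284). Hom tumour 3 had the lowest level and wt tumours 4 and 5 the highest, and the 3 genotypes overlapped. A slope of each gene on the log2 level of Mki67 was fitted with genotype in the model, so that it describes tumours of the same genotype. A slope of 1 means that a gene changes in step with Mki67.

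None of the 33 slopes lay below 0, where 50.6% of all slopes did, and 25 of the 33 rose with Mki67 at an edgeR quasi-likelihood adjusted p under 0.05. Of all 14271 genes tested, 10.4% did so, and 15.1% passed in either direction. The median slope was 0.66 over the 33 genes and -0.01 over all genes. Without wt tumours 1 and 2, 20 of the 33 passed and the median slope of the 33 was 0.62. The share of all genes in that fit alone is not given here. Between 20 and 27 of the 33 passed when each tumour was left out in turn, where 1232 to 3464 of all genes passed in either direction. Over all alternative fits of the slope, the one without wt tumours 1 and 2 included, 276 to 3464 of all genes passed.

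**Figure D2:**
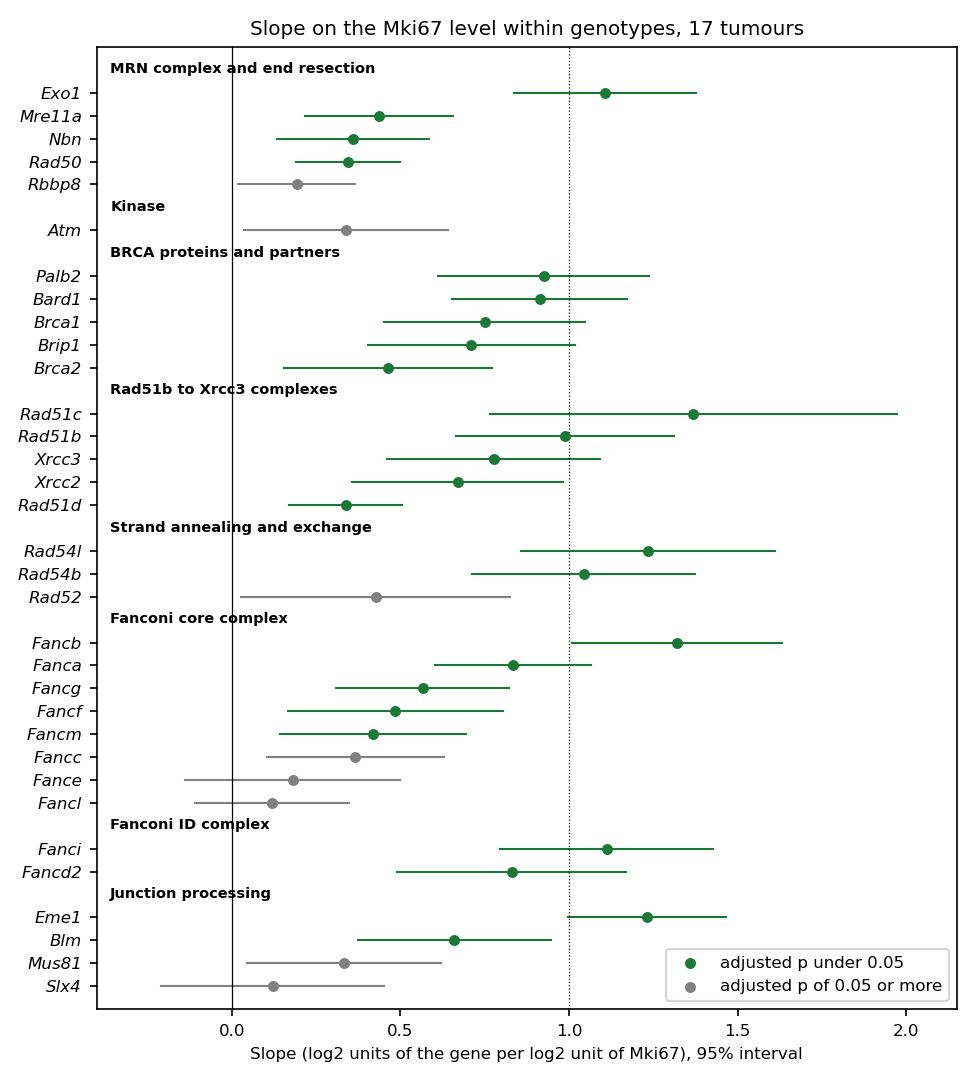
Slope of each gene on Mki67 within genotypes (log2 units per log2 unit, horizontal axis) with its 95% interval, grouped by role, from a fit to 17 tumours. Green points passed an adjusted p of 0.05 and grey points did not, and the dotted line at 1 marks a gene that moves in step with Mki67.

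Genes for resection showed small slopes with 1 exception. Exo1, the long-range resection exonuclease, stood at 6.97 to 21.5 CPM in hom tumours (median 17.3), at 9.53, 14.2, 22.8, 22.7 and 32.2 CPM in het tumours and at 15.5 to 32.2 CPM in wt tumours (median 21.4). Its slope was 1.11 (95% interval 0.84 to 1.38, adjusted p = 3.51e-05). The MRN genes had slopes of 0.44 for Mre11a, 0.36 for Nbn and 0.34 for Rad50, with adjusted p of 0.0102, 0.0324 and 0.00503. Rbbp8 did not pass (slope 0.19, adjusted p = 0.121), nor did the damage kinase gene Atm (slope 0.34, adjusted p = 0.120). Apart from Exo1, the slopes of these genes lay at or below 0.44.

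The 5 genes of BRCA proteins and their partners all rose with Mki67. The bridging protein gene Palb2 had a slope of 0.92 (0.61 to 1.24, adjusted p = 6.25e-04), Bard1, the partner of BRCA1 in a ubiquitin ligase, 0.91, Brca1 0.75 (0.45 to 1.05, adjusted p = 0.00220), the helicase gene Brip1 0.71 and Brca2 0.46 (0.16 to 0.77, adjusted p = 0.0413). Brca1 itself stood at 15.2 to 39.9 CPM in hom tumours (median 30.2), at 21.2, 24.5, 40.8, 40.9 and 46.4 CPM in het tumours and at 28.7 to 47.4 CPM in wt tumours (median 36.0). Its highest values fell in het and wt tumours and its lowest in hom tumour 3. Brca2 was the least tied to Mki67 of these 5, and its call was lost in 6 of 17 fits that left out 1 tumour.

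Rad51b, Rad51c, Rad51d, Xrcc2 and Xrcc3, whose proteins form complexes that assist strand pairing, all rose as well, over a wide range of slopes. Rad51c, which belongs to both of the main complexes, had the steepest slope of the 33 genes at 1.37 (0.76 to 1.97, adjusted p = 0.00450), followed by Rad51b at 0.99, Xrcc3 at 0.78, Xrcc2 at 0.67 and Rad51d at 0.34. Rad51c stood at 1.0 to 3.90 CPM in hom tumours (median 2.37), at 1.26, 1.28, 3.78, 4.21 and 6.28 CPM in het tumours and at 2.61 to 8.40 CPM in wt tumours (median 4.63). These values rest on 17 to 118 counts per tumour, the lowest depth among the 33 genes. Among the strand exchange genes, the translocase genes Rad54l (slope 1.23, 0.86 to 1.61) and Rad54b (slope 1.04) rose, while the annealing gene Rad52 did not pass (slope 0.43, adjusted p = 0.135).

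Among the Fanconi genes, both genes of the ID complex, the pair of proteins that is ubiquitinated at a crosslink, rose with Mki67. Fanci had a slope of 1.11 and Fancd2 of 0.83 (0.49 to 1.17, adjusted p = 0.00272). Of the 8 core complex genes 5 rose, namely Fancb (slope 1.32, 1.01 to 1.63, adjusted p = 2.66e-05), Fanca (0.84), Fancg (0.57), Fancf (0.49) and the DNA translocase gene Fancm (0.42). The other 3 did not pass, with slopes of 0.37 for Fancc, 0.18 for Fance and 0.12 for Fancl. The X-linked gene Fancb stood at 1.89 to 6.98 CPM in hom tumours (median 5.08), at 2.82, 3.12, 5.11, 6.94 and 10.2 CPM in het tumours and at 4.08 to 10.4 CPM in wt tumours (median 5.90).

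Junction processing genes held both the smallest and the largest adjusted p of the 33 genes. Eme1, which encodes the partner subunit of the MUS81 nuclease, stood at 3.55 to 13.2 CPM in hom tumours (median 9.79), at 7.36, 8.09, 10.6, 13.0 and 17.9 CPM in het tumours and at 7.81 to 21.4 CPM in wt tumours (median 11.3). Its slope of 1.23 (1.0 to 1.46) had an adjusted p of 5.38e-06. Mus81 did not pass (slope 0.33, adjusted p = 0.109), although its protein works with that of Eme1. Blm, the helicase that dissolves Holliday junctions, rose with a slope of 0.66 (0.37 to 0.95, adjusted p = 0.00393). Slx4, a scaffold for several nucleases, had a slope of 0.12 (adjusted p = 0.624).

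Some of these calls depended on single tumours. The calls of Nbn, Fancf and Fancm were lost in 8, 10 and 11 of the 17 fits that left out 1 tumour, with adjusted p of 0.0519 to 0.144, 0.0506 to 0.0952 and 0.0534 to 0.107, and that of Rad51d without het tumour 6 (0.0548). Without hom tumour 3, the tumour with the lowest Mki67, 4 genes that had not passed did so: Fancc (slope 0.56, adjusted p = 0.00808), Fance (0.48, 0.0293), Mus81 (0.49, 0.0325) and Rbbp8 (0.32, 0.0150).

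The correlation across the 17 tumours was computed without regard to genotype. Pearson's r with Mki67 on the log2 CPM scale was positive for all 33 genes, with a median of 0.804, against -0.0273 over all genes. With a permutation test adjusted over 14270 genes, 25 of the 33 passed in the positive direction, against 15.0% of all genes, and 23 passed by Spearman's rho, against 13.6% of all genes. Without hom tumour 3 and wt tumour 5, the 2 farthest from the median of Mki67, 24 passed, against 2144 of 14270 genes in the positive direction. Without wt tumours 1 and 2, 26 passed, a setting whose own share of all genes is not given here. Over all alternatives run for the correlation, this one included, 2430 to 4606 of all genes passed in either direction.

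The highest correlations were those of Eme1 (r = 0.968, rho = 0.931), Fancb (r = 0.959, rho = 0.870), Exo1 (r = 0.949, rho = 0.865), Bard1 (r = 0.926, rho = 0.919) and Rad54l (r = 0.910, rho = 0.782). Each had an adjusted permutation p for r of 4.27e-04, from the smallest p that 100000 permutations can give, 1e-05. The lowest were those of Slx4 (r = 0.102, rho = 0.120, adjusted p = 0.790), Fance (r = 0.244, rho = 0.319, adjusted p = 0.489), Fancl (r = 0.391, rho = 0.468, adjusted p = 0.233), Rad52 (r = 0.510, rho = 0.549, adjusted p = 0.0997) and Atm (r = 0.512, rho = 0.319, adjusted p = 0.101). Brca2, at r = 0.514, did not pass either (adjusted permutation p = 0.0999). Without hom tumour 3, Fance reached 0.618 (adjusted permutation p = 0.0375) and Fancl 0.672 (0.0204), while Slx4 had an r of -0.13.

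**Figure D3:**
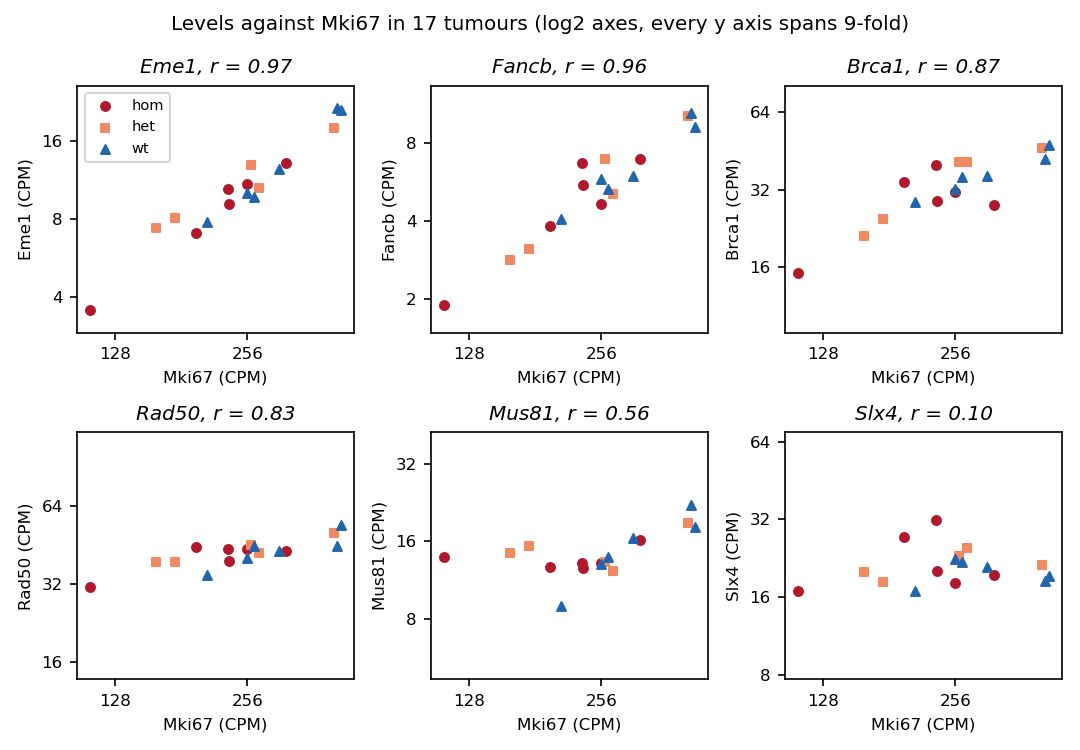
Level of 6 of the genes in CPM (vertical axes) against Mki67 in CPM (horizontal axes), both on log2 scales, in 17 tumours, with hom circles, het squares and wt triangles. Eme1 and Fancb (r of 0.97 and 0.96) follow a line across all 3 genotypes, while Slx4 (r of 0.10) stays level.

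The relation was also computed within the 6 hom tumours and within the 6 wt tumours. In hom tumours the 33 genes had a median r of 0.748, against -0.0669 over all genes, and 30 of them were positive, against 45.2% of all genes. In wt tumours the median was 0.917, against 0.116 over all genes, and 32 were positive, against 53.9% of all genes. At an unadjusted exact permutation p under 0.05, 9 of the 33 passed in the positive direction in hom tumours, against 4.86% of all genes, and 27 in wt tumours, against 14.1% of all genes. Wt tumours 1 and 2, which stood apart in earlier results, had the lowest Mki67 levels of the 6 wt tumours. The values within wt tumours are given only with both included, and their dependence on these tumours was not tested. Hom tumour 3 had the lowest Mki67 of the 6 hom tumours, at 6.81 log2 CPM, with hom tumour 6 next at 7.62. The dependence of the values within hom tumours on hom tumour 3 was not tested either. Some genes had unlike values in the 2 genotypes, such as Rbbp8, with an r of -0.245 in hom tumours and 0.954 in wt tumours, and Fance, with -0.269 in hom tumours and 0.907 in wt tumours. These differences were not tested, and the het group, with 5 tumours, was not examined.

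Other repair genes and the proliferation genes were read beside the 33. All 26 proliferation genes rose with Mki67 (median slope 0.91), but Mki67 is 1 of them and its own rise was given in advance by the model. By Pearson's r, which left Mki67 out, all 25 passed in the positive direction, against 15.0% of all genes. Of all genes, 10.4% rose at an edgeR adjusted p under 0.05, the threshold used here, and their median slope was -0.01 over all genes tested. Of 34 further genes of recombination and the Fanconi pathway, 18 rose (median slope 0.37), among them Ube2t, the ubiquitin-conjugating enzyme for the ID complex (slope 1.04). Of 12 damage signalling genes 9 rose (median 0.43), including Chek1 (1.06), H2afx (0.90) and Chek2 (0.66). Of 12 end joining genes 3 rose (median 0.19), namely the polymerase gene Polq (1.30), Xrcc6, a Ku subunit (0.55), and Parp1 (0.45). None of these lists held a gene that fell at that threshold, although 4 of the 34 further recombination and Fanconi genes had slopes below 0.

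Markers of other cell types were read in the same libraries. Smooth muscle markers, all 6 detected, summed to 63.3 to 217 CPM in hom tumours, to 101 to 176 CPM in het tumours and to 98.4 to 290 CPM in wt tumours. Their mean log2 level followed Mki67 with r = 0.717 and rho = 0.576 (permutation p adjusted over 7 marker lists 0.00910 and 0.0629), and r was 0.423 without hom tumour 3 and wt tumour 5. With that mean as a further covariate, 13 of the 33 genes passed, against 10.9% of all genes, and the median slope was 0.49. Eme1 (1.13, adjusted p = 7.18e-04), Fancb (1.25, 0.00186), Exo1 (1.02, 0.00247) and Rad54l (1.01, 0.0111) were among the 13, while Brca1 (0.51, 0.0631), Brca2 (0.26, 0.347), Fancd2 (0.57, 0.0747) and Blm (0.48, 0.0899) were not. None of the other 6 lists passed for r (adjusted p of 0.0543 for leukocytes to 0.496 for fibroblasts and mast cells). Leukocyte markers had r = -0.582 and rho = -0.571 (adjusted p for rho 0.0629). Their r was -0.746 without hom tumour 3 and wt tumour 5. There 3 of the 6 leukocyte genes passed as negative by Pearson's r, against 1321 of 14270 genes. With all tumours of the large intestine none of the 6 passed by Pearson's r, against 1645 of 14270 genes passing as negative. By Spearman's rho 1 of the 6 passed as negative there, against 1380 of 14270 genes. With epithelial markers as the covariate 21 of the 33 genes passed, against 14.3% of all genes, and with fibroblast markers 26, against 16.3%. With leukocyte markers 21 passed, against 8.76% of all genes, and with lymphocyte markers 20, against 8.28%.

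Promoter sequences were read for these genes because genes of the cell cycle often carry E2F sites or the CHR element near their start. RefSeq windows on GRCm38.p6, from 250 bases before to 50 bases after the start, were found for 25 of the 33 genes, as 28 windows. An E2F octamer, searched as TTTCCCGC, TTTGGCGC, TTTCGCGC and TTTGCCGC on both strands, was in 5 windows of 4 genes. Those 5 are 17.9% of the 28 windows, against 2.26% of all 32851 windows and 3.56% of those of genes tested here. The CHR letters TTTGAA, on both strands, were in 10.7% of the 28 windows, against 17.9% of all windows and 12.2% of those of genes tested here. The CCAAT letters were in 64.3%, against 37.4% of all windows and 37.4% of those of genes tested. These matches of letters are a description and not sites shown to be used.

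For each of the 4 genes with an E2F octamer 1 window is shown, of the 2 of Rad51c the one whose start lies 448 bases from the annotated start of the gene, with that of Eme1, the gene closest to Mki67, and that of Fance, a gene far from it. Capitals mark the E2F octamers and CHR letters. Positions count from the RefSeq start used for the window, with -1 just before it, and each sequence is on the strand of its gene. That start lies 174 bases from the annotated start of the gene for Bard1, 205 for Fancg and 221 for Eme1. For Brca2 and Fance the distances are 9 and 11 bases. Bard1 lies on chr1:71102923-71103222 (minus strand), with the CHR letters at -242 and the octamer at -209, Brca2 on chr5:150522371-150522670 (plus strand) with the octamer at -168, Fancg on chr4:43010252-43010551 (minus strand) with it at -52, and Rad51c on chr11:87404457-87404756 (minus strand) with it at 12. Eme1 lies on chr11:94653694-94653993 (minus strand) with the CHR letters at 22, and Fance on chr17:28313280-28313579 (plus strand) with neither.
Eme1: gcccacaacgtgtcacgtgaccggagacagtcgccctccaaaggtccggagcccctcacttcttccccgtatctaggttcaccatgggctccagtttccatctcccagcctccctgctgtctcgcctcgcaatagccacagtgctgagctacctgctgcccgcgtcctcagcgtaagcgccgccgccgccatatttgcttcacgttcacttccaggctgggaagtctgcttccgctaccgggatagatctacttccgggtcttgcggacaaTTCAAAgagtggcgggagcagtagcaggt
Bard1: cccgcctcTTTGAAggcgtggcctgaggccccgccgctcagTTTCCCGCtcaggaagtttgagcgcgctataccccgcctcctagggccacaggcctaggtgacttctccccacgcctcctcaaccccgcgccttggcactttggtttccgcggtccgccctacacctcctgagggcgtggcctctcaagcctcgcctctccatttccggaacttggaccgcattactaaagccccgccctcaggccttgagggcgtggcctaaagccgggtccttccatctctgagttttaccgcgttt
Fancg: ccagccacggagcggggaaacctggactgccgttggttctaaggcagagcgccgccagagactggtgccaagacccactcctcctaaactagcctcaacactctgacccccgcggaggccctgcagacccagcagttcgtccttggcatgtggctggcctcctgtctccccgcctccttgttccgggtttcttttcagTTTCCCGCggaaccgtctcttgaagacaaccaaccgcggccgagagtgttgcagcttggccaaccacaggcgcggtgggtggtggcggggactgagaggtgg
Rad51c: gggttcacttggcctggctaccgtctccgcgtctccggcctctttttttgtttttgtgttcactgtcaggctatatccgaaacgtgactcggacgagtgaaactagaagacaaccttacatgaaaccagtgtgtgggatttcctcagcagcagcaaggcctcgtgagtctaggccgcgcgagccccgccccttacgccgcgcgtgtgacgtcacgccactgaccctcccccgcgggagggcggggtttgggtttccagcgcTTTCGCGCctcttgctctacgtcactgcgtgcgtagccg
Brca2: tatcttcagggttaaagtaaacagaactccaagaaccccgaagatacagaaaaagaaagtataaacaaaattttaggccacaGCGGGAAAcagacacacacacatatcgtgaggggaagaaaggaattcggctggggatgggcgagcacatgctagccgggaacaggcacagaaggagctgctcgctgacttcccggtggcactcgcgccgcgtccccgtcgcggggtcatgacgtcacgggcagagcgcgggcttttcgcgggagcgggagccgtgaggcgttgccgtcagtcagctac
Fance: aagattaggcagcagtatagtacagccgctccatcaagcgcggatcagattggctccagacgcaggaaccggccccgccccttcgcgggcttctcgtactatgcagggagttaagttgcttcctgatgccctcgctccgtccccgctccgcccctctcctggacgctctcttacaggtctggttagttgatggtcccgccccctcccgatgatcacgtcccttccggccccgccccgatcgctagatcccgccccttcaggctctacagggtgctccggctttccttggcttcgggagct

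The gene of this group with an octamer and the weakest tie to Mki67 was Brca2 (r = 0.514), while Bard1, Fancg and Rad51c had r of 0.926, 0.861 and 0.846. Eme1, with the highest r, held the CHR letters and no octamer, as printed above. In the GENCODE M21 annotation of the same build the 33 genes lie on 15 chromosomes, so they do not form a cluster. The exons of 11 of them overlap exons of a gene on the other strand, among them Eme1 (296 bases, with Lrrc59 and Mrpl27), Fanci (665 bases, with Polg) and Fanca (552 bases, with Zfp276). No source used here gives the strand setting of the counting, and reads in those stretches may belong to either gene.

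Between hom and wt tumours none of the 33 genes passed the test. By edgeR, 0.00701% of all genes did, which is Macrod2 alone. At an unadjusted p under 0.05, 2 of the 33 passed, against 16.0% of all genes. The estimates of 31 of the 33 lay below 0, against 54.3% of all genes, with a median of -0.23 on the log2 scale, against -0.03 over all genes. The median was -0.39 without wt tumours 1 and 2, and -0.13, -0.14 and -0.15 without wt tumour 5, wt tumour 4 or hom tumour 3.

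The gene with the largest estimate was Rad51c, whose levels are given above, at a log2 fold change of -0.97 in hom against wt tumours (SE 0.42, adjusted p = 0.290). Nbn stood at 23.4 to 26.0 CPM in hom tumours (median 23.9) and at 21.6 to 41.1 CPM in wt tumours (median 28.2), a log2 fold change of -0.33 (SE 0.15, adjusted p = 0.297). The hom tumours were close together for Nbn while the wt tumours were spread on both sides of them. The next were Fancg at -0.37 (adjusted p = 0.326), Exo1 at -0.57 (0.337) and Eme1 at -0.63 (0.338). The groups overlapped for each of these genes.

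Brca1 had a log2 fold change of -0.35 in hom against wt tumours (SE 0.22, adjusted p = 0.427), Palb2 of -0.24 (SE 0.27, 0.652), Blm of -0.16 (SE 0.21, 0.715) and Fancd2 of -0.06 (SE 0.25, 0.925). Without wt tumour 5, Blm and Fancd2 had estimates of 0.02 and 0.13, and without hom tumour 3 Fancd2 had 0.08. Only Brca2 (0.16, SE 0.18, adjusted p = 0.653) and Slx4 (0.13, SE 0.15, adjusted p = 0.675) had estimates above 0. Slx4 stood at 16.8 to 31.8 CPM in hom tumours (median 19.9) and at 16.9 to 22.5 CPM in wt tumours (median 20.2), the hom tumours reaching higher.

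Proliferation and marker genes moved in these contrasts too, without passing. Mki67 had a log2 fold change of -0.50 in hom against wt tumours (SE 0.25, adjusted p = 0.339), and all 26 proliferation genes had estimates below 0 (median -0.43), Tyms (-0.61) and Aurka (-0.60) with the smallest p. Of the 34 further recombination and Fanconi genes 29 had estimates below 0 (median -0.18), with Rmi2, a Bloom helicase partner (-1.55), and Faap24 (-0.61) lowest in p and Fan1, a crosslink nuclease, at 0.56. The end joining median was -0.14, with Xrcc6 at -0.52 and Lig3 at -0.22, and the damage signalling median -0.25, with Rad9a at -0.49 and H2afx at -0.52. None of these genes passed. Mast cell markers had a median of -3.51 and summed to 45.8 to 229 CPM in hom tumours and to 37.7 to 7675 CPM in wt tumours, smooth muscle markers had a median of -0.28 and fibroblast markers one of 0.38. Their part in the differences of the 33 genes was not tested.

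With the Mki67 level as a covariate the estimates of the 33 genes lay on both sides of 0. In hom against wt tumours, 22 estimates lay above 0 and 11 below, with a median of 0.04, a range of -0.23 to 0.39 and none passing, against 0.00701% of all genes. The median was 0.02 to 0.13 when each tumour was left out in turn (lowest without wt tumour 2, highest without hom tumour 2), and -4.57e-05 without both wt tumours 1 and 2. Of all genes, 54.2% had an estimate below 0 in this model. At an unadjusted p under 0.05, 1 of the 33 passed, against 6.36% of all genes. The 3 genes with the smallest p were Brca2 (0.39, adjusted p = 0.768), Fancd2 (0.35, 0.806) and Rad51b (0.28, 0.819). Rad51c had an estimate of -0.23 and Eme1 of -0.03 in this model. Mki67 is measured in the same libraries and differs in level between the groups, so the model describes tumours at equal Mki67 and does not separate genotype from proliferation.

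**Figure D4:**
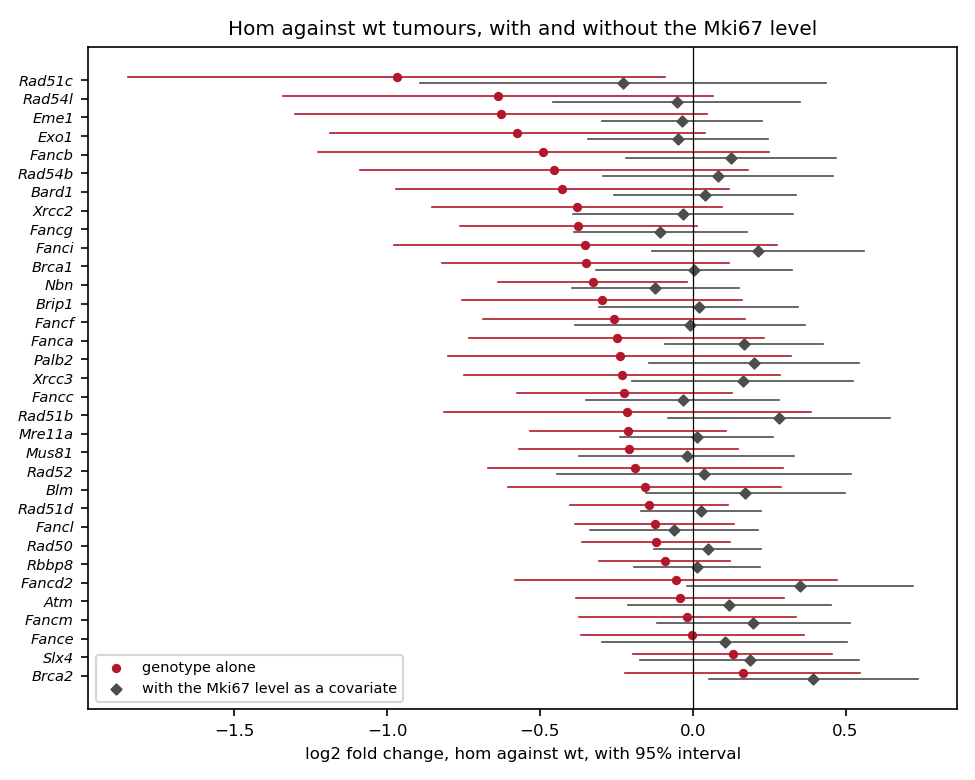
Log2 fold change of each gene in hom against wt tumours with its 95% interval (horizontal axis), from genotype alone (red circles) and with the Mki67 level as a covariate (grey diamonds). The medians are -0.23 and 0.04, and no gene passed an adjusted p of 0.05 in either model.

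In het against wt tumours none of the 33 genes passed, and 0% of all genes did. The median log2 fold change was -0.10, with 23 of the 33 below 0, against 56.8% of all genes, and it was 0.01 without het tumour 1 or without wt tumour 5. It was -0.21 without both wt tumours 1 and 2, and -0.18 without het tumour 6. Nbn (-0.34), Rbbp8 (-0.21) and Brip1 (-0.33) had the smallest p, each with an adjusted p of 0.999, and at an unadjusted p under 0.05 only Nbn passed, against 2.85% of all genes. Nbn stood at 22.5, 20.6, 20.7, 23.9 and 32.0 CPM in the het tumours. With Mki67 as a covariate the median was 0.10, with 26 above 0, Rad51b (0.47), Fanca (0.31) and Xrcc3 (0.34) had the smallest p, and none passed, against 0% of all genes. There 53.9% of all genes had an estimate below 0, and 2 of the 33 passed unadjusted, against 2.45% of all genes.

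In hom against het tumours none passed either, against 0.00701% of all genes, and none of the 33 reached an unadjusted p under 0.05, against 2.0% of all genes. The median was -0.12 with 27 below 0, against 51.8% of all genes. It was -0.21 without het tumour 1, -0.19 without hom tumour 2, -0.05 without hom tumour 3 and -0.02 without het tumour 6. Rad51d (-0.21), Fancg (-0.28) and Xrcc2 (-0.34) had the smallest p. For het and hom tumours together against wt tumours the median was -0.15 with 28 below 0, against 55.5% of all genes, and none passing, against 0.00701% of all genes. That median was -0.32 without both wt tumours 1 and 2, -0.23 without wt tumour 2, -0.08 without wt tumour 4 and -0.06 without wt tumour 5. Nbn (-0.33, adjusted p = 0.433), Rad51c (-0.78, 0.444) and Rbbp8 (-0.15, 0.492) had the smallest p there, and 2 of the 33 passed unadjusted, against 11.2% of all genes. These contrasts share the wt or hom tumours with the first one and are not independent of it.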

How the data were processed

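Per the labels' protocols, resected tumours gave total RNA (AllPrep kit), and sequencing libraries kept the strand (TruSeq Stranded Total RNA). The submitters' processing notes name the mm10 build and, as tools, featureCounts, TopHat and Trimmomatic. The authors deposited whole-number counts per gene and, beside them, RPKM values, which correct for library size and for the length of each gene.

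Counts were tested here with edgeR 4.0.16 in R 4.3.3 (filterByExpr, TMM, robust quasi-likelihood test, Benjamini-Hochberg over 14271 genes, threshold 0.05) in the 17 tumours of the large intestine, with 1 estimate of spread for all genotypes. Slopes used centred log2 CPM of Mki67 (prior count 2) beside genotype. Correlations used 100000 permutations. DESeq2 1.42.0, limma 3.58.1 on counts and on log2(RPKM + 0.1) or log2(RPKM + 1), other scalings and filters, leaving out tumours and a replicate block were alternatives. The scripts were tested on simulated counts. Promoter windows come from RefSeq and positions from GENCODE M21.

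The 33 genes and the comparison lists were chosen with earlier results of these data known. Statistics are given for the members with the smallest p in each contrast, in some contrasts the estimate alone. These members were 5 per direction in hom against wt, of which 2 lay above 0, and 3 elsewhere. Statistics are also given for the 5 highest and 5 lowest correlations, and for Brca1, Brca2, Palb2, Fancd2, Rad51c and Blm. Each other list is represented by its genes of smallest p in hom against wt, at most 2 on either side of 0. Other genes of those lists, and members given with slopes, were named by their role. Claspn was not found in the table, and 1 listed gene is not reported here by name. The lowest chi-square per degree of freedom between 2 libraries was 20.3, so none repeated another. Mouse numbers were not taken to pair the tumours, and p-values measure the spread between tumours.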

Additional observations from a re-analysis of the deposited data

Results flagged for a closer look

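In 102 groups of 5 or 6 tumours, each of 1 gene and 1 genotype, the highest or lowest tumour was compared with the rest by Dixon's ratio, which marks about 1 group in 20 by chance, and 6 were marked. Hom tumour 3, the tumour with the lowest Mki67, was low for Brip1 (6.68 CPM, against 13.6 to 17.1 CPM in the other 5 hom tumours) and for Fanci (4.61 CPM, against 12.5 to 14.9 CPM). Nbn was high in hom tumour 1 (26.0 CPM, against 23.4 to 24.2 CPM in the other hom tumours) and in het tumour 6 (32.0 CPM, against 20.6 to 23.9 CPM in the other het tumours), which had the highest Mki67 of its group. Blm was high in wt tumour 5 (25.5 CPM, against 12.4 to 17 CPM in the other wt tumours), the tumour with the highest Mki67 of all. Mus81 was high in hom tumour 2 (16.2 CPM, against 12.7 to 13.9 CPM in the other hom tumours).

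The het tumour of the small intestine entered no comparison. Its Atm level of 45.6 CPM was above all 17 tumours of the large intestine (24.4 to 43.9 CPM), which held for 1 of the 33 genes.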

How the results depend on the processing

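None of the 33 genes passed in a genotype contrast under any alternative run, and the median of hom against wt stayed below 0 under all 33 of them (-0.39 to -0.13). The number of all genes passing in hom against wt, 1 in the report, was 22 with DESeq2, 2 with the replicate block and 1 to 2 when a tumour was left out. For carriers against wt it was 3 with DESeq2, 0 with the replicate block and 0 without wt tumours 1 and 2, and for hom against het 0 when only those groups were fitted and 0 with the block. At equal Mki67, hom against wt gave 0 with the block. Same-numbered mice did not deviate together (16 pairs, correlations of -0.45 to 0.33, median -0.03, and 1 of 17 tumours closest to one of its own number). The numbers were therefore not used as a pairing, although so few pairs cannot exclude one.

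With the replicate block 10 of the 33 genes rose with Mki67, and 276 of all genes passed, where the block leaves few degrees of freedom. The number of all genes passing for the slope was 1250 with leukocyte and 1182 with lymphocyte markers as a covariate, and 1232 to 3464 when a tumour was left out (lowest without het tumour 6, highest without hom tumour 3). With smooth muscle markers as a covariate 13 of the 33 passed, and the slopes of Atm and Slx4 were -0.0051 and -0.19. With leukocyte markers those of Fance and Fancl were -0.11 and -0.046. The cause of these changes was not tested. These covariates were chosen after seeing the data. The correlation of Slx4 was -0.068 without the 2 tumours farthest from the median, and -0.13 to 0.19 when a tumour was left out, and its slope was -0.032 to 0.18. In the same fits the log2 fold change of hom against wt was -0.21 to 0.022 for Blm and -0.12 to 0.13 for Fancd2. The number of all genes correlated with Mki67 was 2430 to 4606 (lowest without wt tumour 4). Depth limits Rad51c most, at 17 counts in its lowest tumour.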

Other observations

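In the small intestine, the single het tumour had Mki67 at 329 CPM, within the range of the tumours of the large intestine. The genes tied most closely to Mki67 lay within their ranges there too, with 12.4 CPM of Eme1, 6.03 CPM of Fancb, 27.9 CPM of Exo1, 15.8 CPM of Bard1 and 21.3 CPM of Rad54l. The summed level of the 33 genes was 615 CPM in this tumour, against 386 to 586 CPM in hom tumours, 432 to 716 CPM in the het tumours of the large intestine and 423 to 759 CPM in wt tumours. Genotype and tissue cannot be told apart in this single tumour.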
